A study of Rattus norvegicus with 4 samples.

Results

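The miRNA content of matrix vesicles (MVs) produced by resting zone chondrocytes (RC-MVs) was compared with that of MVs produced by growth zone chondrocytes (GC-MVs). The comparison used 2 of the 4 small RNA libraries of the study, 1 of each kind of MV. The other 2 libraries came from the parent cells, RC-cells and GC-cells, and are used only beside the MV values. Every miRNA name with reads entered the comparison. Of the 740 names in the counts, 397 had at least 1 read in both MV libraries, and 271 reached 10 reads in each of them, which was required before a miRNA was ranked.

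The chondrocytes came from the costochondral cartilage of male Sprague Dawley rats and were grown to confluence at passage 4 in medium with ascorbic acid and fetal bovine serum, which by the study's methods had been ultracentrifuged to deplete it of exosomes. Resting zone cells are the less mature cells at the top of the growth plate, and the growth zone cultures came from the prehypertrophic and upper hypertrophic zones below it. After the cell layer was digested with trypsin, MVs were pelleted by centrifugation in steps of rising speed. All 4 conditions are untreated cultures, and a single library stands for each, so no difference has a replicate check, no p-value is given, and zone, culture and library preparation cannot be told apart.

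MVs are small membrane vesicles that chondrocytes bud into the surrounding matrix. They are known as the sites where mineral first forms in growth plate cartilage, and they carry enzymes, matrix proteins and small RNA. A miRNA is cut from a hairpin precursor as a 5p and a 3p strand, one of which is usually kept in an Argonaute protein and the other mostly degraded. Bases 2 to 8 of the mature strand, the seed, pair with the target mRNA, so that miRNAs with the same seed share many targets.

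Sequencing gave 1108821 miRNA reads for RC-MVs and 982543 for GC-MVs, so that the resting zone library was 1.13 times as deep. The cell libraries were deeper, with 6517329 reads (RC-cells) and 7414467 (GC-cells). The share of a miRNA is its percent of the miRNA reads in a library, and the ratio of shares is the measure of difference. A share of 3 reads was 0.000271% in RC-MVs and 0.000305% in GC-MVs. Intervals are at the 95% level and cover counting error only, since a single library stands for each condition. PCR copies of a molecule were counted as separate reads, so the intervals can be too narrow even for counting error. The cartilage miRNA miR-140-3p, made from an intron of Wwp2, was present in both MV libraries with 0.951% in RC-MVs and 0.794% in GC-MVs, beside 0.383% in RC-cells and 0.506% in GC-cells.

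The mature sequences below are those on which the comparison turns, from RefSeq in the GRCr8 build, written 5′ to 3′ with the seed in capitals. The first set holds the most abundant miRNAs of both MV libraries, of which the last shown was among those higher in RC-MVs.
rno-miR-143-3p (chr18:57371373-57371394, minus strand): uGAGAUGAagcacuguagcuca
rno-miR-21-5p (chr10:71902653-71902674, minus strand): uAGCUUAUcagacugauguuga
rno-miR-22-3p (chr10:60805387-60805408, plus strand): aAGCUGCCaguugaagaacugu
rno-miR-127-3p (chr6:134328510-134328531, plus strand): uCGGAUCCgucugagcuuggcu

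The second set holds miRNAs that were lower in RC-MVs than in GC-MVs, with miR-15b-5p shown because it shares its seed with miR-16-5p.
rno-miR-10a-5p (chr10:81779730-81779752, plus strand): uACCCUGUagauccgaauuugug
rno-miR-122-5p (chr18:61028831-61028852, plus strand): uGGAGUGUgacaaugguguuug
rno-miR-126a-3p (chr3:29813219-29813240, plus strand): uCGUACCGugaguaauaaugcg
rno-miR-16-5p (chr2:155555343-155555364, plus strand): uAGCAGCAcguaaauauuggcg
rno-miR-15b-5p (chr2:155555197-155555218, plus strand): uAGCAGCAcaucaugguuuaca

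The third set holds both strands of the Mir148a, Mir27a and Mir351 hairpins, whose strands behaved differently or which ranked highest, and 3 strands with the seed of one of them. The counts use the older names miR-351 and miR-351* where RefSeq has miR-351-5p and miR-351-3p, and the counts do not tell which of the RefSeq strands each older name stands for.
rno-miR-148a-5p (chr4:81664483-81664505, minus strand): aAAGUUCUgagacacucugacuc
rno-miR-148a-3p (chr4:81664447-81664467, minus strand): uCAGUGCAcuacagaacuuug
rno-miR-148b-3p (chr7:136299930-136299951, plus strand): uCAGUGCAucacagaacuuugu
rno-miR-152-3p (chr10:82329435-82329455, plus strand): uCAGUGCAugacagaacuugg
rno-miR-27a-5p (chr19:40859655-40859676, minus strand): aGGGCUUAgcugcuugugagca
rno-miR-27a-3p (chr19:40859614-40859634, minus strand): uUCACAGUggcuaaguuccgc
rno-miR-351-5p (chrX:137725157-137725181, minus strand): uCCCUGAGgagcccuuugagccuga
rno-miR-351-3p (chrX:137725121-137725141, minus strand): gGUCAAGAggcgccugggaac
rno-miR-125b-5p (chr11:29732588-29732609, plus strand): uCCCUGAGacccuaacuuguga

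The same 4 miRNAs led both MV libraries, but in different amounts. In RC-MVs, 4 miRNAs made up 50% of the miRNA reads and 34 made up 90%, whereas in GC-MVs 2 and 29 miRNAs were enough. In percentage points the largest shift among them was that of miR-143-3p, which is transcribed together with miR-145 in mesenchymal and smooth muscle cells. It held 11.8% of the reads in RC-MVs (130495 reads) and 32.4% in GC-MVs (317902 reads), so that its share was 2.75-fold lower in RC-MVs (interval 2.73 to 2.77). In the cells it held 11.2% (RC-cells) and 20.7% (GC-cells). The other 2 leading miRNAs lay close together. The share of miR-21-5p, which is abundant in most cultured cells, was 17.2% in RC-MVs and 17.9% in GC-MVs, and that of miR-22-3p was 20.3% and 17.0%. Together these 3 miRNAs accounted for 49.2% of the reads in RC-MVs (Wilson interval 49.1% to 49.3%) and 67.2% in GC-MVs (67.1% to 67.3%). In the cells they accounted for 56.1% (RC-cells) and 64.8% (GC-cells).

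Because the 3 leading miRNAs left 50.8% of the reads to all others in RC-MVs but 32.8% in GC-MVs, the ratio of every other miRNA depends on whether they are in the total. Taking them out lowered each log2 ratio by 0.63, and taking out miR-143-3p alone lowered each by 0.38. The TMM factors of edgeR and the size factors of DESeq2 both lowered each by 0.15. The median log2 ratio of the 271 miRNAs was 0.15 with all reads in the totals and -0.48 without the 3 leading miRNAs. Each shift is the same for all miRNAs that stay in the totals, so their order does not depend on it.

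Next in abundance were miRNAs with larger shares in RC-MVs. The imprinted miR-127-3p held 6.84% of the reads in RC-MVs (75867 reads) and 2.29% in GC-MVs (22543 reads). For miR-320-3p, a miRNA made without Drosha, the shares were 3.50% and 1.25%. For miR-134-5p, known from neurons and encoded in the imprinted cluster from miR-379 to miR-410, they were 3.43% and 1.27%. The ratios were 2.98 (interval 2.94 to 3.03), 2.79 (2.74 to 2.85) and 2.69 (2.64 to 2.75), respectively. Without the 3 leading miRNAs in the totals, none of these 3 reached 2-fold, with log2 ratios of 0.95, 0.85 and 0.80. In the same abundance range, let-7i-5p went the other way, with 1.54% in RC-MVs and 2.19% in GC-MVs. Among the 12 most abundant miRNAs of GC-MVs, miR-148a-3p and miR-122-5p had ranks 6 and 10, whereas in RC-MVs they had ranks 27 and 31.

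**Figure D1:**
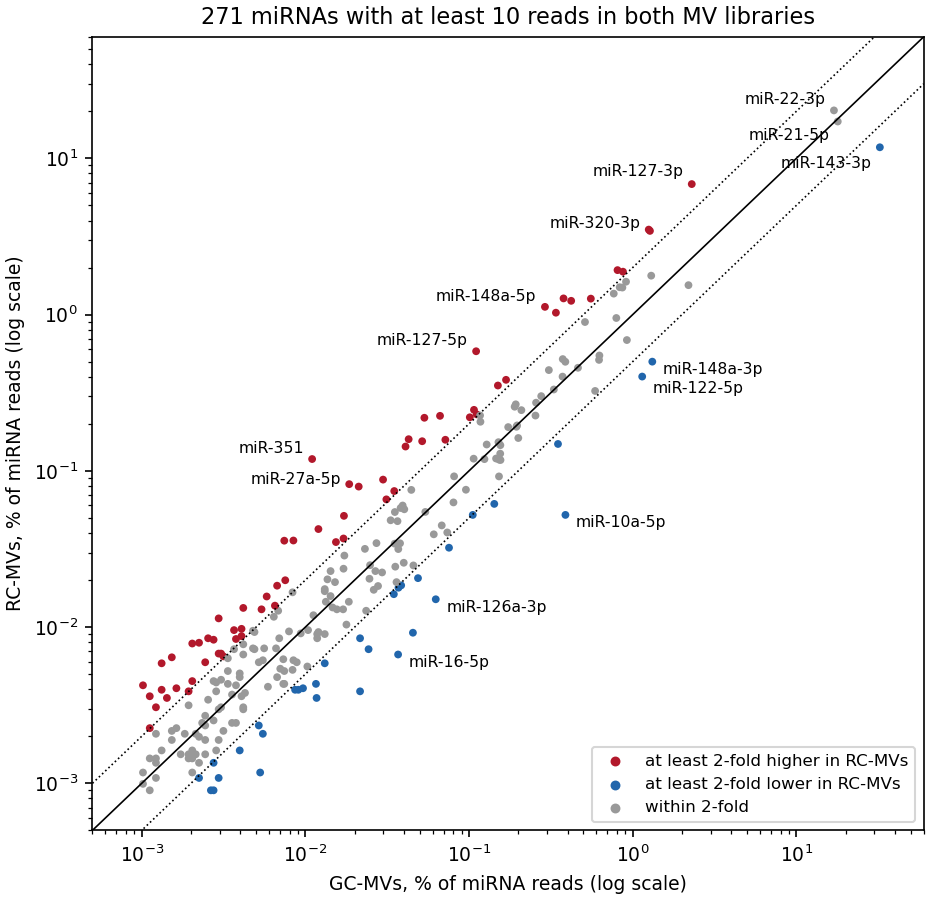
Share of miRNA reads in RC-MVs (y axis, percent, log scale) against GC-MVs (x axis, percent, log scale) for the 271 miRNAs that reached 10 reads in both libraries, 1 point a miRNA and 1 library an axis. The solid line marks equal shares and the dotted lines mark 2-fold. miR-143-3p lies below the lower dotted line at 32.4% against 11.8%, while miR-127-3p and miR-320-3p lie above the upper one.

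A ratio of 2 or more was taken as a difference. Among all 397 miRNAs found in both kinds of MVs, 98 differed toward RC-MVs (24.7%) and 58 toward GC-MVs (14.6%), which together is 39.3%. Among the 271 that could be ranked, 64 were higher in RC-MVs by this measure (23.6%) and 33 were lower (12.2%), or 35.8% in either direction. The balance of directions depended on the scaling. Of these calls 66.0% were higher in RC-MVs, and without the 3 leading miRNAs in the totals it was 21.8%, as 22 miRNAs were then higher (8.21%) and 79 lower (29.5%). With TMM 52 were higher (19.2%) and 39 lower (14.4%), and with size factors 50 (18.5%) and 39. Under all 4 scalings (all reads, totals without the 3, TMM and size factors), 22 miRNAs were higher by 2-fold (8.21%) and 32 were lower (11.9%). Together this is 20.1% of the 268 miRNAs other than those 3. Since the other scalings all lower every log2 ratio, calls that were lower with all reads in the totals could not be lost. The libraries shared most of their miRNAs, since the 34 found only in RC-MVs and the 34 found only in GC-MVs had at most 10 reads each.

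The miRNA with the highest ratio was miR-351, with 1319 reads (RC-MVs) and 108 reads (GC-MVs). This was a ratio of 10.8 (interval 8.89 to 13.3). The next was miR-127-5p, the strand opposite to miR-127-3p, with 6458 and 1085 reads and a 5.27-fold higher share (4.94 to 5.63). The 5p strands of the miR-23, miR-27 and miR-24 clusters followed among the highest 12. They were miR-27b-5p (396 and 73 reads, 4.81-fold, 3.74 to 6.26), miR-27a-5p (911 and 182 reads, 4.44-fold, 3.78 to 5.23) and miR-23a-5p (71 and 15 reads, 4.19-fold, 2.38 to 7.88). From the imprinted region came miR-376a-3p (65 and 13 reads), miR-665 (47 and 10), miR-434* (2423 and 524) and miR-666-5p (126 and 29), with ratios between 3.85 and 4.43. The remaining members of the 12 were miR-542-3p (397 and 83 reads, 4.24-fold), miR-219a-1-3p (87 and 20 reads, 3.85-fold) and miR-148a-5p (12424 and 2858 reads, 3.85-fold, 3.70 to 4.01). All 12 were at least 2-fold higher under all 4 scalings. This follows from the size of their ratios, since the largest shift lowers each log2 ratio by 0.63.

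At the other end was miR-10a-5p, encoded between Hox genes, with 579 reads (RC-MVs) and 3812 reads (GC-MVs). Its share was 7.43-fold lower in RC-MVs (interval 6.81 to 8.12). It was followed by miR-139-5p (43 and 212 reads, 5.56-fold lower, 3.99 to 7.91), miR-16-5p (74 and 362 reads, 5.52-fold lower, 4.29 to 7.19) and miR-30b-5p (102 and 446 reads, 4.93-fold lower, 3.97 to 6.18). The endothelial miR-126a-3p, made from an intron of Egfl7, had 167 and 615 reads and was 4.16-fold lower (3.50 to 4.96). Lower by between 2.85-fold and 4.51-fold were miR-142-5p (13 and 52 reads), miR-218a-5p (80 and 239), miR-31a-3p (39 and 115), miR-369-3p (10 and 27), miR-194-5p (10 and 26) and miR-122-5p (4447 and 11225). The last of the 12 was miR-143-3p. With 10 reads in RC-MVs, the intervals of miR-369-3p and miR-194-5p reached down to 1.43-fold and 1.37-fold. The 11 of these other than miR-143-3p, which the totals without the 3 leave out, were at least 2-fold lower under all 4 scalings. This was fixed in advance, since the other scalings all lower every log2 ratio.

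**Figure D2:**
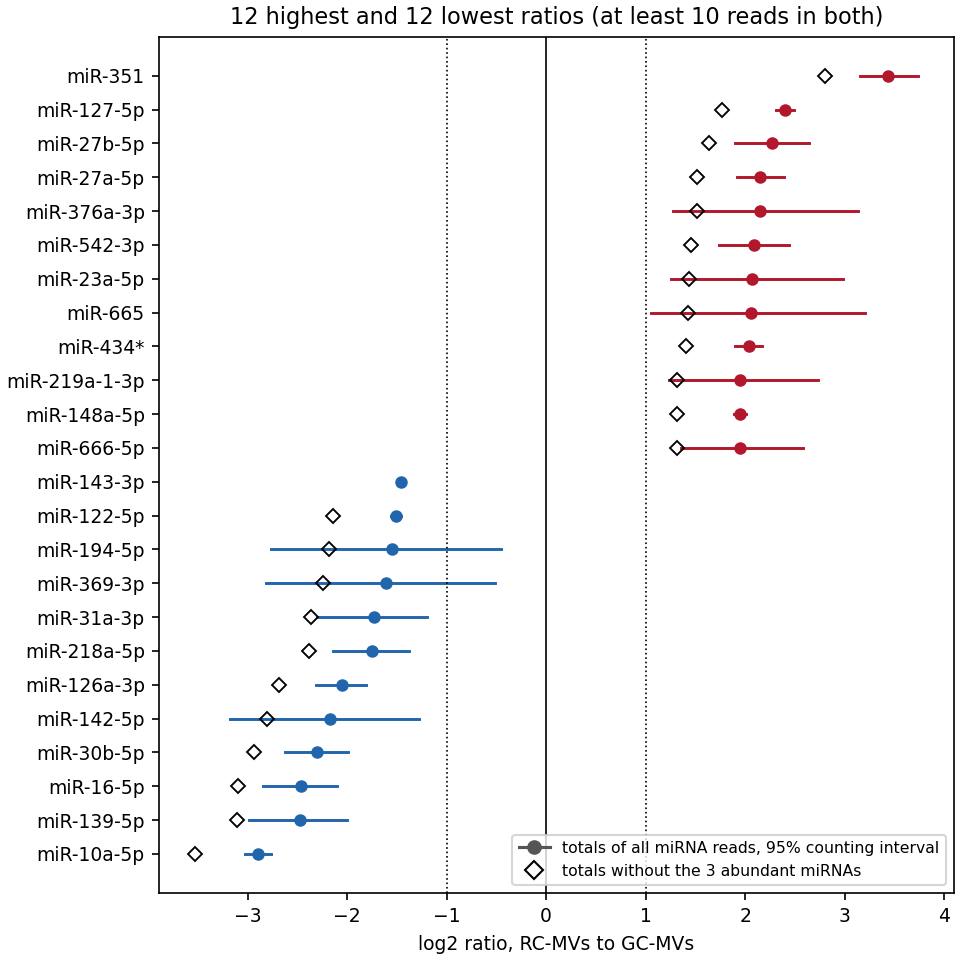
log2 ratio of RC-MVs to GC-MVs (x axis) for the 12 miRNAs with the highest and the 12 with the lowest ratio among those with at least 10 reads in both libraries. Filled points use all miRNA reads as totals with 95% counting intervals as bars, open diamonds use totals without the 3 abundant miRNAs (none for miR-143-3p), and dotted lines mark 2-fold. Each diamond lies 0.63 to the left of its filled point, and all lie beyond the dotted line on the side of their filled point.

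Some miRNAs were nearly confined to 1 MV library but rested on few reads. The reads of miR-23b-5p were 58 (RC-MVs) and 2 (GC-MVs), which gave a ratio of 25.7 with an interval from 6.80 to 217. The ratio was 8.86 for miR-351* (30 and 3 reads, 2.76 to 45.4), 9.30 for miR-503* (21 and 2 reads, 2.27 to 81.9) and 5.91 for miR-181a-2-3p (20 and 3 reads, 1.75 to 31.0). In the opposite direction, miR-10a-3p had 1 read in RC-MVs and 20 in GC-MVs, with a ratio of 0.0443 (0.00107 to 0.277), so that both strands of the Mir10a hairpin were lower in RC-MVs.

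Several miRNAs of the X-linked cluster were at least 2-fold higher in RC-MVs. The cluster holds the cell cycle miRNAs miR-322, which lay within 2-fold, and miR-503, which had 3 (RC-MVs) and 1 (GC-MVs) reads and was not ranked. All 10 names of the cluster had reads in an MV library, and 5 reached 10 reads in both, of which 4 were higher by 2-fold and 0 lower, beside 23.6% higher over all miRNAs. Their median log2 ratio was 1.67, beside 0.15 over all 271. The members were miR-351 (3.44), miR-542-3p (2.08), miR-322* (1.67), miR-450a-5p (1.27) and miR-322 (0.30). Without the 3 leading miRNAs in the totals, 3 of the 5 stayed at least 2-fold higher, beside 8.21% over all miRNAs. The names of the cluster summed to 0.188% (RC-MVs) and 0.0311% (GC-MVs) of the reads. The cells of the zones also differed, with sums of 0.337% in RC-cells and 0.0982% in GC-cells.

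The imprinted region of chromosome 6, expressed from the maternal chromosome, gave the largest group of miRNAs higher in RC-MVs. Of 24 names around the Rtl1-antisense transcript, which lies opposite to the retrotransposon-derived gene Rtl1, 19 reached 10 reads in both libraries, and 15 of them were higher by 2-fold and 0 lower, beside 23.6% and 12.2% over all miRNAs. The median log2 ratio was 1.54. Besides both strands of miR-127 they included miR-370-3p (14071 and 3712 reads, 1.75 on the log2 scale), miR-341 (13581 and 4133 reads, 1.54), miR-540-3p (1767 and 420 reads, 1.90) and miR-136-5p (470 and 118 reads, 1.82). An exception below the read minimum was miR-337-3p, with 9 reads (RC-MVs) and 50 reads (GC-MVs). It was chosen after its values were seen. Together the 24 names held 10.9% of the reads of RC-MVs and 3.62% of those of GC-MVs, beside 3.07% in RC-cells and 1.89% in GC-cells. Without the 3 leading miRNAs in the totals, 7 of the 19 stayed at least 2-fold higher, beside 8.21% over all miRNAs.

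The neighbouring cluster from miR-379 to miR-410 was less uniform. It has 69 names, of which 37 reached 10 reads in both libraries. Of the 37, 12 were higher by 2-fold, 1 was lower and 24 lay within 2-fold, with a median of 0.68, beside 23.6% higher and 12.2% lower over all miRNAs. The higher members included miR-134-5p, miR-541-5p (21347 and 7933 reads, 1.25), miR-382-5p (4239 and 1653 reads, 1.18), miR-485-5p (879 and 208 reads, 1.90) and miR-409a-3p (2493 and 653 reads, 1.76). The member at least 2-fold lower was miR-369-3p (-1.61). miR-381-3p had 16586 and 8181 reads and a log2 ratio of 0.85. The cluster summed to 8.76% in RC-MVs and 3.94% in GC-MVs. With totals without the 3 leading miRNAs, 4 of the 37 members were at least 2-fold higher and 6 lower, beside 8.21% and 29.5% over all miRNAs.

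Several miRNAs known from liver, blood cells and endothelium had smaller shares in RC-MVs, and 3 of 3 ranked members of the liver list and 4 of 7 of the blood and endothelial list were lower by 2-fold, beside 12.2% over all miRNAs. When the 3 leading miRNAs were left out, it was 3 of 3 and 6 of 7, beside 29.5% over all. Both MV libraries held the liver miRNA miR-122-5p, with 0.401% in RC-MVs and 1.14% in GC-MVs, whereas the cells had 32 reads (RC-cells) and 34 reads (GC-cells). For the erythroid miR-451-5p there were 681 reads (RC-MVs) and 1401 reads (GC-MVs), so that its share was 2.32-fold lower (interval 2.12 to 2.55), and 5 and 8 reads in the cells. The myeloid miR-223-3p had 48 and 114 reads (2.68-fold lower, 1.90 to 3.84), and 1 and 0 reads in the cells. For miR-142-3p, expressed throughout the blood lineages, there were 62 and 101 reads (1.84-fold lower, 1.33 to 2.56), and 3 and 6 reads in the cells. The lymphocyte miRNA miR-150-5p, with 33 and 41 reads, had an interval that included equal shares, with a ratio of 0.713 (0.437 to 1.16).

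Over the whole list of erythroid, leukocyte and endothelial miRNAs, 12 of 15 names had reads in an MV library and 7 had at least 10 in both. Of the 7, 4 were lower by 2-fold and 0 higher, beside 12.2% lower over all miRNAs, and the median was -1.22. The erythroid miR-144-3p had the ratio closest to equal, with 144 and 153 reads and -0.26 on the log2 scale. The list summed to 0.105% in RC-MVs and 0.256% in GC-MVs, and to 0.0404% in RC-cells (2633 reads) and 0.0320% in GC-cells (2374 reads). Nearly all of these cell reads came from members other than miR-451-5p, miR-223-3p and miR-142-3p. The names at 0 reads in both MV libraries were miR-126b, miR-155-3p and miR-451-3p. In the liver and serum list, all 3 members with at least 10 reads in both libraries were lower, with log2 ratios of -1.55 for miR-194-5p, -1.51 for miR-122-5p and -1.10 for miR-192-5p. The list summed to 0.419% in RC-MVs, 1.18% in GC-MVs, 0.0286% in RC-cells and 0.0395% in GC-cells. In the MVs most of its reads were miR-122-5p (4447 of 4642 in RC-MVs and 11225 of 11597 in GC-MVs). In the cells the list had 1863 (RC-cells) and 2930 (GC-cells) reads, nearly all from its other members. The reads of both lists moved with the zone of the MVs, and their part in the other differences was not tested. Muscle miRNAs had 2 members with at least 10 reads in both (1 lower), neural miRNAs had 2 (0 beyond 2-fold) and epithelial miRNAs had 0.

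Of the miRNAs encoded in the Hox clusters, which mark position along the body, 3 had at least 10 reads in both libraries. Besides miR-10a-5p, miR-10b-5p was lower in RC-MVs (357 and 741 reads, -1.23 on the log2 scale), whereas miR-615 was higher (174 and 57 reads, 1.44). The miR-29 family, known for repressing collagen mRNAs, had 2 of 4 members lower and 0 higher. They were miR-29a-3p (1647 and 3433 reads, -1.23) and miR-29b-3p (44 and 89 reads, -1.19). The clusters of miR-17-92 and its paralogs, known for promoting proliferation, had 3 of 9 members lower (miR-17-5p, miR-106b-5p and miR-20a-5p) and 1 higher, miR-92a-1-5p (44 and 13 reads). Their median was -0.89. With 3 to 9 members a list, these counts stand beside 23.6% higher and 12.2% lower over all miRNAs. Without the 3 leading miRNAs in the totals (8.21% higher and 29.5% lower over all), miR-615 was no longer 2-fold higher, 3 of 4 miR-29 members were lower, and of the miR-17-92 clusters 6 of 9 were lower and 0 higher.

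Among the cartilage miRNAs, miR-675-3p and miR-675-5p had 0 reads in both MV libraries, and the strands of Mir140 differed. miR-140-3p had 10542 and 7799 reads and a log2 ratio of 0.26, and miR-140-5p had 94 and 212 reads and a log2 ratio of -1.35. Just under the threshold, miR-455-3p had 185 and 82 reads (a ratio of 1.999) and miR-455-5p had 262 and 168 (0.47). In the cluster of miR-143 and miR-145, miR-145-5p had 6065 and 6148 reads and a log2 ratio of -0.19, beside -1.46 for miR-143-3p, -0.61 for miR-143-5p and -0.87 for miR-145-3p. Only miR-143-3p was beyond 2-fold with all reads in the totals, beside 12.2% lower over all miRNAs. When the 3 leading miRNAs were left out, miR-143-5p and miR-145-3p were also 2-fold lower, beside 29.5% over all. The cluster of miR-199a and miR-214, known from mesenchymal cells, had 0 of 4 members beyond 2-fold, beside 35.8% over all miRNAs. When the 3 leading miRNAs were left out, 1 of 4, miR-199a-3p, was 2-fold lower, which is near the 29.5% lower over all miRNAs.

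Of the families that control developmental timing and differentiation, the let-7 family had 15 members that could be ranked, of which 1 was higher by 2-fold. That member was let-7c-5p (20859 and 8565 reads, 1.11). The family ran from there down to -0.67. The miR-99/100 and miR-125 families had 3 of 9 higher and 0 lower, with miR-125b-5p at 1.60 (11399 and 3334 reads). The miR-181 family had 3 of 6 higher, among them miR-181a-5p (14025 and 5449 reads, 1.19). In both of these lists 0 members stayed at least 2-fold higher without the 3 leading miRNAs in the totals, and 6 let-7 members were then at least 2-fold lower. Over all miRNAs the shares were 23.6% higher and 12.2% lower with all reads, and 8.21% and 29.5% without the 3. Reads of near-identical members, in let-7 above all, could have been split between loci in the counting and are uncertain. In the lists of miR-221 and miR-222, miR-26, miR-34, miR-130 and the miR-532 cluster in introns of Clcn5, 0 members were beyond 2-fold with all reads in the totals. When the 3 leading miRNAs were left out, 2 of 2 miR-26 members, 3 of 5 miR-34 members and 1 of 4 members of the miR-532 cluster were at least 2-fold lower.

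In other lists the members went both ways or split by strand. The clusters of miR-23, miR-27 and miR-24 had 4 of 9 members higher, all of them 5p strands, and 0 lower. Of their 3p strands, miR-23a-3p was at -0.02 on the log2 scale, miR-23b-3p at 0.14, miR-24-3p at -0.28, miR-27a-3p at -0.60 and miR-27b-3p at 0.47. The family of miR-148 and miR-152 had 2 of 6 higher, both of them 5p strands, and 2 lower. The miR-30 family, abundant in many tissues, had 2 of 10 higher, both of them 3p strands (miR-30c-2-3p and miR-30d-3p), and 2 lower (miR-30b-5p and miR-30c-5p). The cluster of miR-193 and miR-365 had 2 of 5 higher, both of them 5p strands (miR-193a-5p and miR-193b-5p). The list of miR-320 and mirtrons had 2 of 3 higher, the miR-15 and miR-16 family 1 of 2 lower, and the list of miR-132, miR-212, miR-146 and miR-210 had 1 of 8 lower. The family of miR-204 and miR-211 had 0 members with 10 reads in both libraries. Over all miRNAs 23.6% were higher and 12.2% lower, and the counts of the miR-30 family were near these shares. Without the 3 leading miRNAs in the totals (8.21% and 29.5%), 0 members of the miR-30 list and of the list of miR-320 and mirtrons were higher, 3 of the 9 members of the miR-23, miR-27 and miR-24 clusters were higher and 1 was lower, and the higher members of the miR-148 and miR-193 lists stayed at 2 each. The lower members then went from 2 to 3 in the miR-148 list, from 0 to 1 in the miR-193 list and from 1 to 2 in the list of miR-132, miR-212, miR-146 and miR-210.

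**Figure D3:**
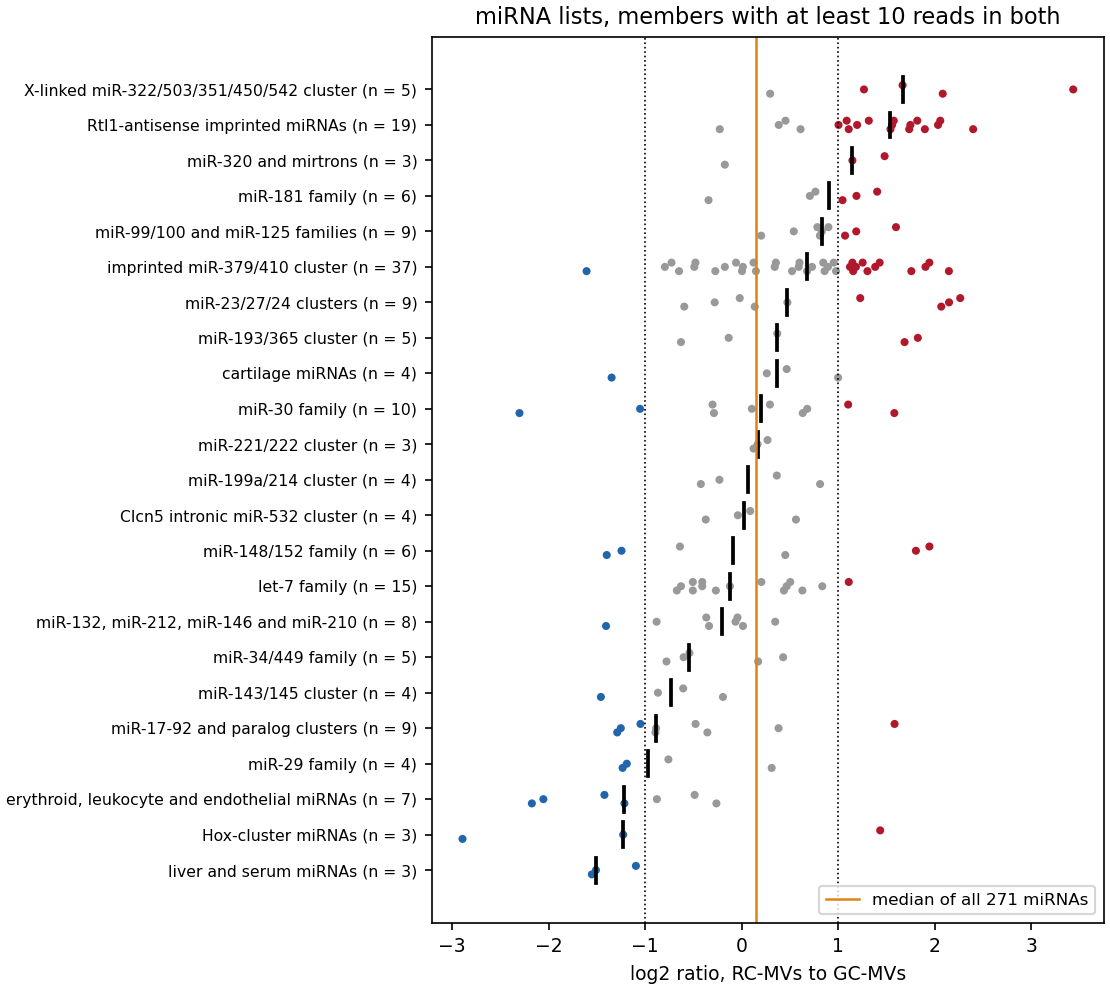
log2 ratio of RC-MVs to GC-MVs (x axis) of the members with at least 10 reads in both libraries, for each list with 3 or more such members, 1 point a miRNA. Black bars are list medians, the orange line is the median of all 271 miRNAs at 0.15, dotted lines mark 2-fold, and red and blue points lie beyond it. The X-linked and Rtl1-antisense lists have the highest medians (1.67 and 1.54) and the liver list the lowest (-1.51).

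miRNAs with the same seed did not always share a direction. Of the 271 miRNAs, 246 were matched by name to a RefSeq sequence, and these held 27 seeds with 2 or more members (69 miRNAs). The members of 6 of these seeds lay at least 2-fold apart. The widest was the seed AGCAGCA, with miR-15b-5p at -0.04 (11 and 10 reads, close to the read minimum) and miR-16-5p at -2.46 (74 and 362 reads) on the log2 scale. Their loci printed above are neighbours on chromosome 2. Among the matched members, the next was the seed CAGUGCA. It holds miR-148a-3p at -1.40 (5540 and 12940 reads), miR-148b-3p at -1.25 (228 and 479 reads) and miR-152-3p at 0.45 (19672 and 12745 reads). Summed over its 3 members, this seed held 2.29% of the reads of RC-MVs and 2.66% of those of GC-MVs. The seed of let-7, GAGGUAG, summed to 5.88% in RC-MVs and 4.71% in GC-MVs over 9 members. For the seed GUAAACA, only miR-30a-5p, miR-30c-5p and miR-30e-5p of the miR-30 family were matched. The ranked miR-30b-5p (-2.30) and miR-30d-5p (-0.30) were not, so the order of seeds by width covers matched members only. miR-351-5p carries the seed of miR-125b-5p, as the sequences above show.

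The ratio of 5p to 3p reads of a precursor does not depend on the library total, since the reads of both strands come from the same library. For 74 precursors both strands reached 10 reads in each MV library. The ratio of 5p to 3p reads differed at least 2-fold between RC-MVs and GC-MVs for 33 of them (44.6%), with the 5p share larger in RC-MVs for 19 (25.7%) and smaller for 14 (18.9%). The counting interval lay wholly beyond 2-fold for 16. In the cells, 71 of the 74 precursors had at least 10 reads of both strands in both libraries. Between RC-cells and GC-cells, 0 of the 71 differed by 2-fold, and the largest change was 0.60 on the log2 scale, whereas 30 of the same 71 (42.3%) differed between the MVs, 17 toward 5p (23.9%) and 13 toward 3p (18.3%). The median absolute change was 0.85 between the MVs and 0.22 between the cells. The cell libraries are deeper, and when both were thinned to the total of GC-MVs, a mean of 0.81 of 58.7 precursors differed by 2-fold.

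The largest change was that of Mir148a. In RC-MVs the 5p strand had 12424 reads and the 3p strand 5540, and in GC-MVs the 5p strand had 2858 and the 3p strand 12940. The ratio of 5p to 3p was 10.2-fold higher in RC-MVs (interval 9.64 to 10.7), and the more abundant strand was 5p in RC-MVs and 3p in GC-MVs. In both kinds of cells the 3p strand was the more abundant, with log2 ratios of 5p to 3p of -4.68 (RC-cells) and -4.90 (GC-cells). Mir27a changed in the same sense, with 911 reads of 5p and 192 of 3p in RC-MVs and 182 and 257 in GC-MVs, a 6.70-fold change (5.24 to 8.56). Mir92a1 (5.59-fold), Mir193 (5.48-fold), Mir23a (4.25-fold) and Mir136 (4.13-fold) followed. In the opposite sense, Mir30c2 had 97 reads of 5p and 571 of 3p in RC-MVs and 191 and 169 in GC-MVs, a 6.65-fold change (4.94 to 8.97). The ratio of 5p to 3p reads was also lower in RC-MVs for Mir106b, Mir140, Mir30c1, Mir28 and Mir21, by between 2.85-fold and 3.19-fold. For Mir140 it was 3.05-fold (2.39 to 3.89), with the reads of both strands given above.

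The more abundant strand was a different one in RC-MVs than in GC-MVs for 10 of the 74 precursors. Among these, the log2 change of the 5p to 3p ratio had an interval that included 0 for Mir667 (0.26, -0.51 to 1.03) and Mir339 (-0.68, -1.56 to 0.21). The changes had no common direction with respect to the minor strand, called from the cells. Its share was larger in RC-MVs in 38 of 74 cases, and the median change was 0.11 on the log2 scale. For 9 precursors, among them Mir92a1, Mir30c1 and Mir30c2, a strand is shared by several loci and its reads could have been divided between them. Without these, 27 of 65 precursors differed by 2-fold.

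**Figure D4:**
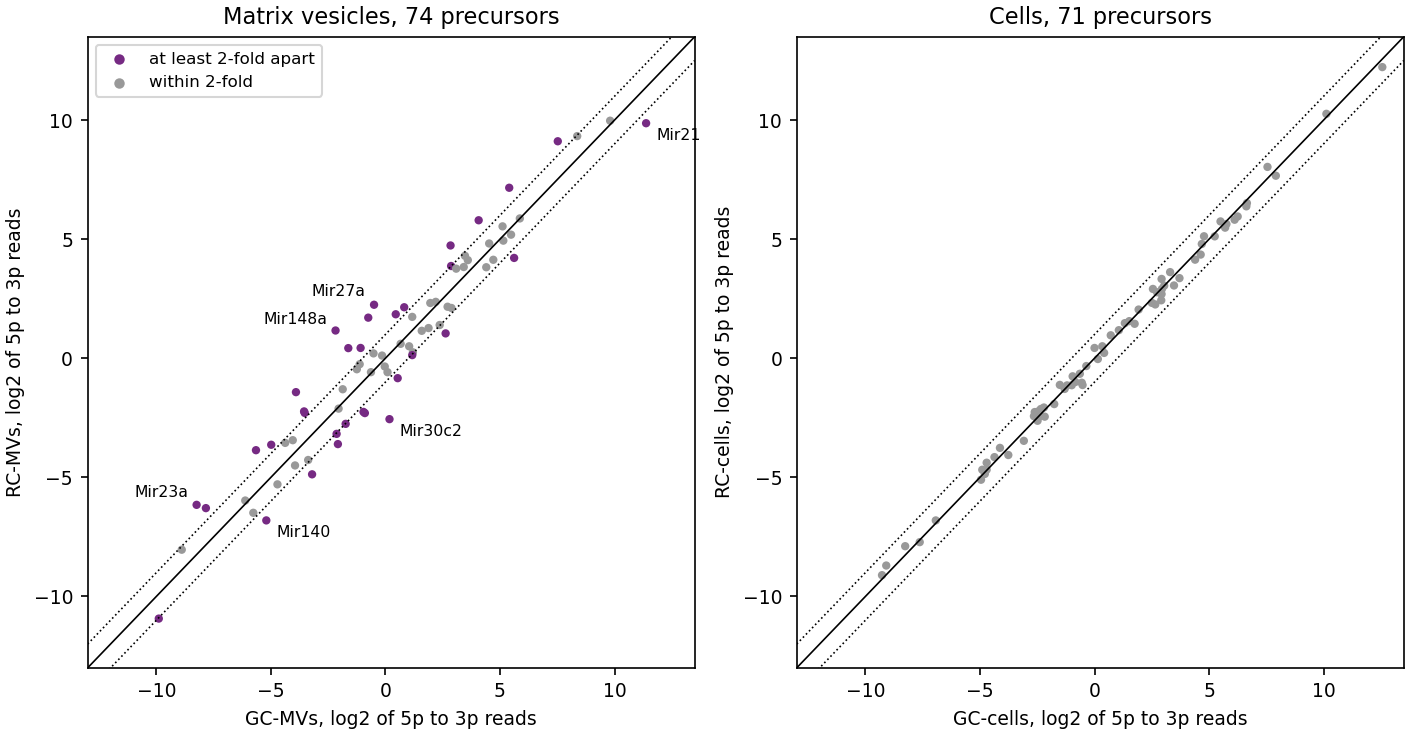
log2 of the ratio of 5p to 3p reads in the resting zone (y axis) against the growth zone (x axis), for MVs on the left (74 precursors) and cells on the right (71 of these with at least 10 reads of both strands in the cells), 1 point a precursor. The solid line marks equal ratios and the dotted lines mark a 2-fold difference. In MVs 33 precursors lie beyond the dotted lines, and in cells 0.

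The ratio between the MVs varied with the G and C content of the mature strand, and that between the cells did so less. RefSeq sequences were matched by name for 246 of the 271 miRNAs (90.8%). Their G and C content had a Spearman rho of 0.35 with the log2 ratio between the MVs and of -0.05 with that between the cells, as a description across miRNAs that share the same libraries. The 15 miRNAs under 35% G and C had a median log2 ratio of -0.33, with 1 at least 2-fold higher and 4 lower, and the 60 with 35% to under 45% had a median of -0.28, with 5 higher and 11 lower. The 20 miRNAs with 65% or more had a median of 1.01, with 11 higher and 1 lower, beside 23.6% higher and 12.2% lower over all miRNAs. In the cells the medians of these groups were 0.28, 0.32 and 0.26. With totals that leave out the 3 leading miRNAs, an alternative added after the data were seen, 1 of 15, 2 of 59 and 2 of 20 were higher and 7, 27 and 4 were lower, beside 8.21% and 29.5% over all. Length had a rho of 0.02 with the ratio between the MVs, and the log of the read count had 0.10. Within precursors, the difference in G and C content between the strands had a rho of 0.46 with the change of the 5p to 3p ratio between the MVs (64 precursors) and of 0.12 with that between the cells. The strand richer in G and C had a larger share in RC-MVs than in GC-MVs for 40 of 59 precursors whose strands differed in content. The part of base composition in the differences between single miRNAs was not tested.

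Setting the MVs beside their parent cells shows which differences between the zones were also present in the cells. For 262 miRNAs all 4 libraries reached 10 reads. Of these, 90 (34.4%) differed by 2-fold between the MVs, 61 toward the resting zone (23.3%) and 29 toward the growth zone (11.1%). Between the cells 25 did so (9.54%), 20 toward the resting zone (7.63%) and 5 toward the growth zone (1.91%). The log2 ratios had an SD of 0.98 between the MVs and 0.60 between the cells. Across miRNAs the ratios had a Pearson r of 0.53 and a Spearman rho of 0.51. The cell libraries were deeper and were not thinned here, so counting error adds more to the spread and the 2-fold calls between the MVs. For 9 miRNAs the share was at least 2-fold higher in the resting zone in both MVs and cells, and for 3 it was at least 2-fold lower in both. The 9 were miR-351, miR-27b-5p, miR-542-3p, miR-666-5p, miR-136-5p, miR-322*, miR-1188-5p, miR-450a-5p and miR-181b-5p, of which miR-351 had log2 ratios of 3.44 (MVs) and 1.97 (cells). The 3 were miR-10a-5p, with -2.89 in MVs and -3.02 in cells, miR-582-3p and miR-676. These counts depend on the scaling, which was changed for the MV and the cell libraries at once. The scaling of the cell libraries was varied after the data were seen. TMM lowered each log2 ratio between the cells by 0.34 and each between the MVs by 0.15. With it, 5 miRNAs differed toward RC-cells and 12 toward GC-cells. Then 4 were higher in both MVs and cells (miR-351, miR-542-3p, miR-322* and miR-450a-5p, all of the X-linked cluster) and 5 lower in both. With totals that leave out the 3 leading miRNAs, 4 of 259 were higher in both and 6 lower in both. miR-351, miR-542-3p, miR-322*, miR-10a-5p, miR-582-3p and miR-676 were beyond 2-fold in both under each of these scalings.

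For 52 miRNAs RC-MVs had a share higher by 2-fold or more while the cells lay within 2-fold, and for 26 a lower one (46 and 29 with TMM). With totals that leave out the 3 leading miRNAs the balance turned, with 16 higher and 68 lower of 259. With all reads in the totals, miR-148a-5p had a log2 ratio of 1.95 between the MVs and 0.30 between the cells, miR-125b-5p had 1.60 (0.97 without the 3) and 0.37, and miR-30b-5p had -2.30 and -0.10. In 13 cases (8 with TMM) the cells differed by 2-fold and the MVs did not. The largest was miR-490-3p, with -2.12 between the cells and -0.39 between the MVs, which was lower by 2-fold in both when the 3 leading miRNAs were left out, and miR-322 had 1.55 and 0.30. Differences of 2-fold in opposite directions were seen for 0 miRNAs. With 9 reads in RC-cells, miR-139-5p is not among the 262. It was lower in the resting zone in both, with -2.48 between the MVs and -3.98 between the cells. Whether the differences between MVs and cells exceed the variation between preparations was not tested, as each kind had 1 library.

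**Figure D5:**
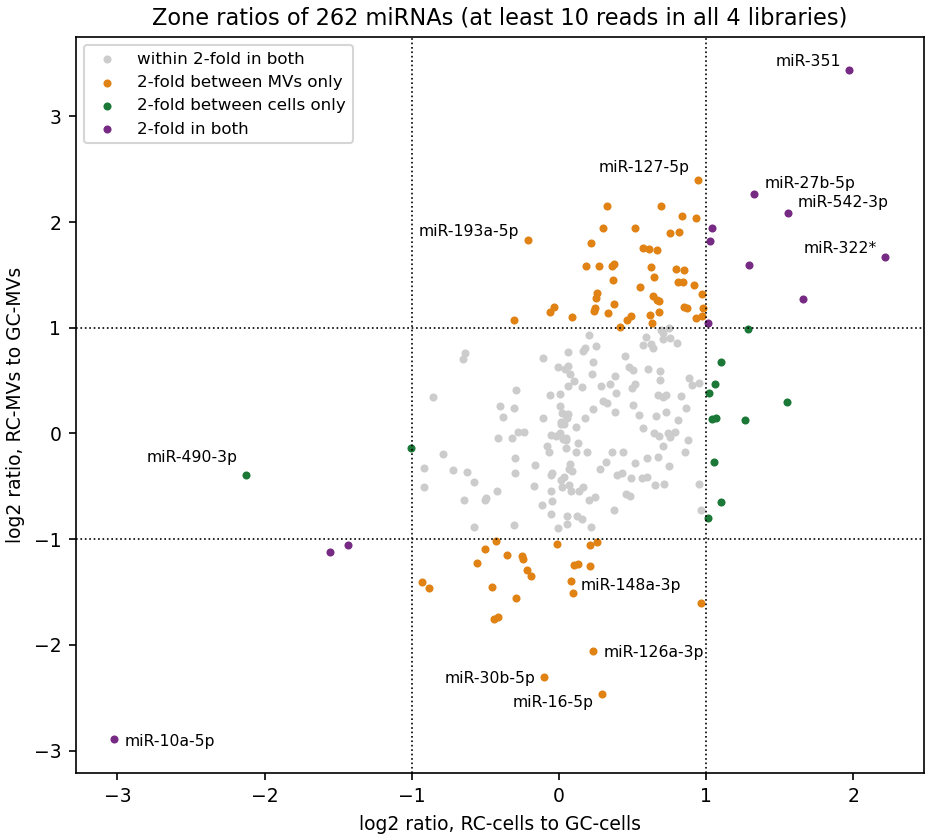
log2 ratio of RC-MVs to GC-MVs (y axis) against that of RC-cells to GC-cells (x axis) for the 262 miRNAs that reached 10 reads in every library, 1 point a miRNA. Dotted lines mark 2-fold. The points spread more along the y axis (SD 0.98, shallower libraries) than along the x axis (SD 0.60, deeper libraries). miR-351 and miR-10a-5p lie at opposite corners.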

How the data were processed

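Small RNA of 4 libraries was sequenced on an Illumina HiSeq. Bowtie2 alignment to Rnor_6.0 and miARma-Seq gave the raw whole-number counts for every annotated locus, as the authors deposited them. How multiply aligned reads were assigned, and which tool versions were used, is not given in the sources used here. Counts of loci with the same mature name were added (774 loci, 740 names, 28 of them with several loci) and divided by the miRNA reads of the library, between 982543 and 7414467. A ratio of percents was called at 2-fold. Ratios have exact Clopper-Pearson intervals and shares Wilson intervals, at 95% and for counting error only. The interval for a change in strand ratio is a normal approximation on the log scale.

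The members and lists were chosen with earlier results of these data known. The miRNAs named are the 12 most abundant of either MV library, the 12 highest and the 12 lowest ratios with at least 10 reads in both, the 5 with most reads among those at 3 reads or fewer in the other MV library, the 6 that the study chose for RT-qPCR, members of the lists with at least 100 reads in 1 MV library as examples, and the 6 precursors with the largest change of 5p to 3p ratio in each direction. Values of others, among them miR-337-3p, miR-15b-5p, miR-490-3p and members that complete a count, are given as exceptions chosen after they were seen. Strand ratios used precursors with 5p and 3p names, which left out 2 with older names.

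The scalings were tested with edgeR 4.0.16 (TMM) and DESeq2 1.42.0 (size factors) for each pair of libraries in R 4.3.3, with no count test. The rest was computed in Python 3.11.15 (scipy 1.17.1, pandas 2.3.3, numpy 2.4.6) and drawn in matplotlib 3.10.9. The ratios and intervals were tested on simulated data. Sequences are from RefSeq (GRCr8), which is not the build of the counts, and were matched by miRNA name. The PCR array, RT-qPCR and pathway analysis of the study were not used here.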

Additional observations from a re-analysis of the deposited data

Results flagged for a closer look

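For 8 of the 90 miRNAs that differed by 2-fold between the MVs and reached 10 reads in every library, the ratio between the cells had the opposite sign, with a counting interval that did not include equal shares. The difference between MVs and cells was not tested, as each had 1 library. All 8 were lower in RC-MVs and higher in RC-cells. The log2 ratios between the cells were 0.29 for miR-16-5p, 0.23 for miR-126a-3p, 0.97 for miR-369-3p, 0.080 for miR-148a-3p, 0.21 for miR-17-5p, 0.10 for miR-148b-3p, 0.13 for miR-29a-3p and 0.21 for miR-30c-5p. Between the MVs they ran from -2.46 (miR-16-5p) to -1.05 (miR-30c-5p). TMM normalization of the cell libraries lowered each log2 ratio between the cells by 0.34, after which miR-369-3p alone kept the opposite sign, with 0.63. It rests on 10 (RC-MVs) and 27 (GC-MVs) reads.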

How the results depend on the processing

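No paired analysis was possible because there was 1 library of each kind, and for the same reason no replicate could be left out. The share of miRNAs beyond 2-fold was 39.3% (156 of 397). It was 33.6% with at least 100 reads in both, 46.5% with no filter and a pseudocount of 0.5, 15.4% with the whole interval beyond 2-fold and 8.06% at 4-fold, and stayed within its Wilson interval under the 3 scalings and totals without miR-143-3p, with at least 10 reads, with thinning to the total of GC-MVs and with each locus as deposited. The counts higher and lower (98 and 58) became 40 and 122 without the 3 abundant miRNAs in the totals, 61 and 91 without miR-143-3p alone (chosen after seeing the data), 64 and 33 with at least 10 reads, 32 and 14 with at least 100 reads, 42 and 19 with the whole interval beyond 2-fold, and 19 and 13 at 4-fold. With TMM they were 85 and 69 and with size factors 80 and 69. The 33 precursors whose 5p to 3p ratio differed by 2-fold became 16 of 39 with at least 30 reads of both strands, 16 with the whole interval beyond 2-fold and 7 at 4-fold. The counts without shared strands and with thinned cells were chosen after seeing the data. The scalings lowered each log2 ratio by 0.63 at most. A named miRNA called at 2-fold or a list median beyond 2-fold therefore could not change direction, and that none did tests nothing. Of 144 named ratios, 59 moved beyond their counting interval with TMM, and 128 of 141 did so without the 3 abundant miRNAs. Depth limits the miRNAs with few reads, since 10 reads were 0.000902% of RC-MVs and 0.00102% of GC-MVs.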
